A study of Rattus norvegicus with 4 samples.

Results

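The gastric proton pump and the ion transport of the parietal cell were examined in the oxyntic mucosa of rats, the part of the gastric lining that holds the parietal cells. The set comprised 10 genes, taken as every probe set of the chip whose platform gene symbol was one of their names, and these gave 15 of the 15866 probe sets. In the octreotide LAR group, 3 Affymetrix RAE230A chips each held RNA pooled from 2 of 6 female Sprague-Dawley rats aged 8 weeks, which had been given 5 mg of the depot somatostatin analogue octreotide LAR per animal, and the samples are labelled 21 days. In the vehicle group, 1 chip held RNA pooled from 8 such rats given the depot vehicle alone, also labelled 21 days. All rats were fasted overnight and anaesthetised with fentanyl, haloperidol and midazolam, as the labels word it for every sample. The vehicle group was taken from the sample title, since octreotide LAR is named in the source field of that sample too. The treated chips are called pools 1, 2 and 3.

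The parietal cell secretes acid by exchanging cytosolic protons for potassium ions at its canalicular membrane, using the proton pump made of a catalytic subunit (Atp4a) and a glycosylated accessory subunit (Atp4b). Potassium returns to the canaliculus through channels, so that the pump does not run out of its exchange ion. Carbonic anhydrase in the cytosol forms protons and bicarbonate. On the basolateral side, anion exchange lets the bicarbonate out in return for chloride, and cation exchangers and cotransporters help to keep the cell pH and the ion supply. Somatostatin restrains this process mainly by holding back gastrin and histamine, and also acts on the parietal cell itself.

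The promoters of both pump subunits are shown because these genes had the same order of treated pools and because the rat pump genes are known for a shared sequence bound by GATA factors, here called the gastric GATA motif. A shared order is not particular to them. By the brightest probe set, Slc4a2, Slc9a4 and Slc12a2 shared another order, and Kcnj15, Kcnj16 and Car2 a further one. The windows run from 250 bases before to 50 bases after the annotated start in RefSeq, build GRCr8: chr1:95088872-95089171 on the plus strand for Atp4a and chr16:82846079-82846378 on the plus strand for Atp4b. Capitals mark the matches to the gastric GATA motif on either strand.
Atp4a: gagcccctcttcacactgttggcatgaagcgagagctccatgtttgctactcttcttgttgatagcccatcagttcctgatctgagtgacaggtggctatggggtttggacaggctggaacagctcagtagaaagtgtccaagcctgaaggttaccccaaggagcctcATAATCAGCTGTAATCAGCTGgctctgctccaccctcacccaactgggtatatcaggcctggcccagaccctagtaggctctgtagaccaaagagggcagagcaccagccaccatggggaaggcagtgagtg
Atp4b: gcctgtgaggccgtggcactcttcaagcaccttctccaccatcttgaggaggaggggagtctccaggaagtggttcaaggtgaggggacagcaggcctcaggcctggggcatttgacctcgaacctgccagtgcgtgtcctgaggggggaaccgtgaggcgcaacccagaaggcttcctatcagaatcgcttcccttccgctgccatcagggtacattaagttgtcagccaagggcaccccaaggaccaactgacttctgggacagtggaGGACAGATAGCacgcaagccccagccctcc
In Atp4a the motif matched at 2 places on the opposite strand, from base -82 to -72 and from base -72 to -62, counting the first transcribed base as 1, so the matches share 1 base. In Atp4b it matched at 1 place on the same strand, from base 21 to 31. Of the 33469 promoter windows in the RefSeq table, 3.34% held this motif on either strand, and 0.137% held it at 2 or more places. Of the 10 genes, 7 had a promoter in that table, and Atp4a and Atp4b were the ones with a match. The motif is known from these same genes and was added to the search after the promoters were seen, so its presence here is a description and not a finding. The letters AGATAA, also read by GATA factors, were on neither strand of the 7 windows, against 11.6% of all windows. Those of the oestrogen-related receptor site, AAGGTCA, were in 0 of 7, against 4.61% of all windows. The letters TATAAA were in 0 of 7 as well, against 14.2%, and TGACG, part of the cyclic AMP response element, in that of Kcnj15 and in 21.2% of all windows. A match describes letters and shows no binding.

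No probe set of the acid transport genes was called different after octreotide LAR. A probe set was called at an adjusted p under 0.05 in limma, fitted on log2(signal + 16) over all 9520 probe sets that passed a filter on dim signals (mean at or above about 144.7), with Benjamini-Hochberg adjustment over all of them. Of the 15 probe sets, 13 passed the filter, covering all 10 genes, and 0 of 13 were called, where 0.105% of all tested probe sets were. At an unadjusted p under 0.05, 1 of the 13 was counted, that of Kcnq1, against 4.57% of all probe sets. By side, 4 of the 13 were lower than vehicle on every treated chip, against a background of 24.0%, and 2 were higher on every treated chip, against 25.0%. With 7 lower and 3 higher in the mean, the median log2 difference of the 10 genes by their brightest probe set was -0.08, and -0.04 with all tested probe sets of a gene averaged. Over all 7150 genes tested it was -0.00087. The vehicle group is a single chip, so its spread was assumed to equal that of the treated chips. That chip pooled 8 rats and each treated chip 2, so the spreads may differ, which was not tested. An exact permutation test of 3 chips against 1 could not go below a p of 0.25, two-sided on the absolute difference. In scraped mucosa, fewer parietal cells and less RNA per parietal cell cannot be told apart.

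**Figure D1:**
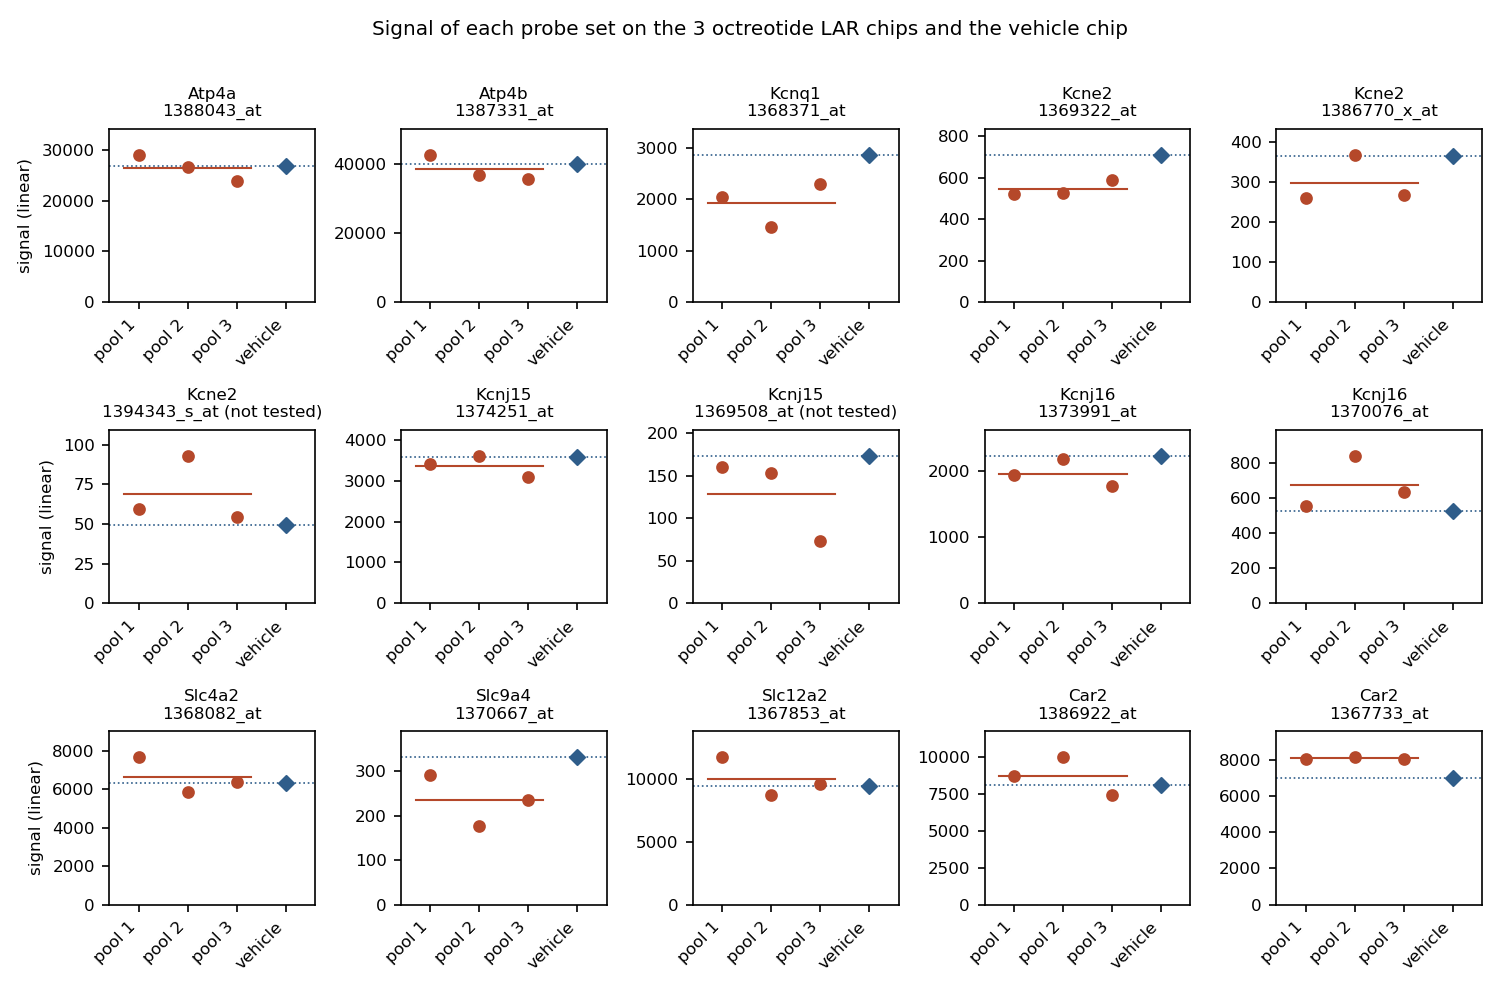
Linear signal of each of the 15 probe sets on the chips of pools 1, 2 and 3 (red circles, with their mean as a red line) and on the vehicle chip (blue diamond, extended as a dotted line), each panel with an axis starting at 0. Kcnq1, Slc9a4 and the brightest Kcne2 probe set lie below the vehicle line on all 3 treated chips, while the circles of Atp4a and Atp4b lie on both sides of it.

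Both pump subunits stayed near the vehicle signal. Atp4a, the catalytic subunit that carries out the proton and potassium exchange, had signals of 28931.7, 26680.0 and 23835.1 in pools 1, 2 and 3, against 26692.5 on the vehicle chip. Pool 1 was above the vehicle chip, pool 3 below it and pool 2 almost level with it, so the vehicle value lay inside the treated range. The log2 difference was -0.02, and its 95% interval reached from -0.35 to 0.32 (limma adjusted p = 0.9998), which spans a signal 1.28-fold lower to 1.25-fold higher. Atp4b, the accessory subunit that carries the pump to the membrane, had 42462.4, 36766.6 and 35704.6 in pools 1, 2 and 3, against 39973.9 on the vehicle chip. Again pool 1 was above and pool 3 below the vehicle chip. Its log2 difference was -0.07, with an interval from -0.40 to 0.27 (limma adjusted p = 0.9998). Both probe sets were steady between pools, with a coefficient of variation of 9.64% for Atp4a and 9.49% for Atp4b. The within-chip ratio of Atp4b to Atp4a, which a single factor for a chip cannot alter, differed from its vehicle value by a mean of -0.05 ± 0.06 on the log2 scale (SD, n = 3), and by -0.0020 after quantile normalization. The pools share the single vehicle chip, so this SD holds the spread of the treated chips and none of the vehicle. The highest signal of each chip lay between 49293.9 and 61846.0, so Atp4b was read near the upper end of the scale.

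The channel pair Kcnq1 and Kcne2 gave lower mean signals after octreotide LAR, without passing the test. Kcnq1, the pore-forming subunit of the channel that returns potassium to the canaliculus, had 2037.1, 1459.5 and 2303.9 in pools 1, 2 and 3, against 2855.3 on the vehicle chip. All treated chips were below the vehicle chip, pool 2 farthest. The log2 difference was -0.58 with a 95% interval from -1.07 to -0.10, a signal 0.667 times that of vehicle (limma unadjusted p = 0.022, adjusted p = 0.987). Of the 9520 probe sets tested, 2.17% had a smaller p. Over the alternative settings that kept all 3 treated chips, the adjusted p ran from 0.908 to 0.9998. Without pools 1, 2 and 3 in turn the log2 difference was -0.63, -0.40 and -0.72.
Kcne2, the small accessory subunit that keeps this channel open at low pH, had 522.1, 528.3 and 588.1 in its brightest probe set in pools 1, 2 and 3, against 709.4 on the vehicle chip. All treated chips were below it and close to each other, with a coefficient of variation of 6.67%. The log2 difference was -0.37, with an interval from -0.85 to 0.11 (limma unadjusted p = 0.118, adjusted p = 0.9998). A second Kcne2 probe set had 259.1, 367.1 and 268.1 against 364.0 on the vehicle chip, with pool 2 level with vehicle (log2 difference -0.29, limma adjusted p = 0.9998). The dimmest failed the filter, with 59.3, 92.8 and 54.7 against 49.6 on the vehicle chip, all above it. These dimmer probe sets are listed with the same sequence record, and their suffixes mark probes that can match more than one transcript. The ratio of Kcnq1 to Kcne2 differed from its vehicle value by -0.05, -0.55 and -0.04 in pools 1, 2 and 3 on the log2 scale, close to the vehicle ratio in pools 1 and 3 and below it in pool 2.

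**Figure D2:**
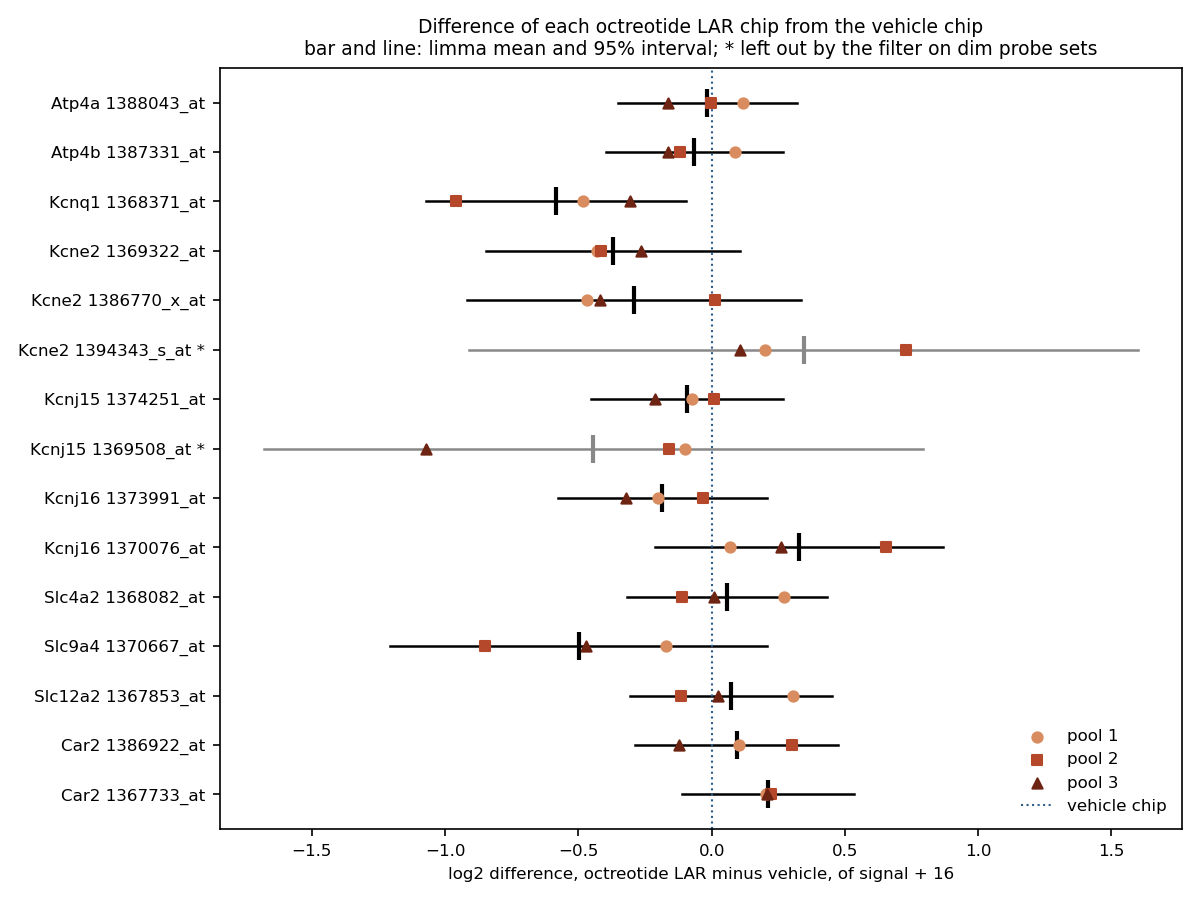
Log2 difference of each octreotide LAR chip from the vehicle chip (symbols for pools 1, 2 and 3), with the limma mean (vertical bar) and its 95% interval (line); the dotted line at 0 is the vehicle chip, and 2 probe sets marked with an asterisk failed the filter and come from the fit without it. The interval of Kcnq1, from -1.07 to -0.10, is the one that does not reach 0, and its adjusted p is 0.987.

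The inward rectifier channels Kcnj15 and Kcnj16 showed no called difference, and the probe sets of Kcnj16 disagreed. Kcnj15 encodes Kir4.2, a potassium channel of acid-secreting and other epithelia. Its brightest probe set had 3395.2, 3594.6 and 3076.9 in pools 1, 2 and 3, against 3569.4 on the vehicle chip. The vehicle value lay inside the treated range, and the log2 difference was -0.09 with an interval from -0.45 to 0.27 (limma adjusted p = 0.9998). Its dim probe set failed the filter, with 160.6, 153.3 and 74.0 in the treated pools against 173.2 on the vehicle chip. Kcnj16 encodes Kir5.1, a subunit that pairs with Kir4 channels. Its brighter probe set had 1928.6, 2168.8 and 1771.4 in pools 1, 2 and 3, against 2218.2 on the vehicle chip, all below it. Its dimmer probe set had 553.0, 836.1 and 633.1, against 526.1 on the vehicle chip, all above it. Their log2 differences were -0.18 for the brighter (interval -0.58 to 0.21) and 0.33 for the dimmer (interval -0.21 to 0.87; limma adjusted p = 0.9998 for both). Within each treated chip the brighter probe set lay below the dimmer one relative to vehicle, by 0.27, 0.68 and 0.58 in pools 1, 2 and 3 on the log2 scale, so no direction is given for Kcnj16. The ratio of Kcnj15 to Kcnj16 depends on that choice of probe set and is not given.

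Among the basolateral exchangers and cotransporters, Slc4a2 and Slc12a2 lay around the vehicle value and Slc9a4 lay below it on every treated chip. Slc4a2, the anion exchanger AE2 that lets bicarbonate out in return for chloride, had 7659.8, 5864.8 and 6385.9 in pools 1, 2 and 3, against 6339.4 on the vehicle chip. Pool 1 was the high chip and pool 2 was below vehicle, and the log2 difference was 0.06 with an interval from -0.32 to 0.43 (limma adjusted p = 0.9998). Slc12a2, the sodium, potassium and chloride cotransporter NKCC1, had 11704.9, 8730.3 and 9616.7 in pools 1, 2 and 3, against 9460.3 on the vehicle chip. It showed the same order of pools, and its log2 difference was 0.07 with an interval from -0.31 to 0.45 (limma adjusted p = 0.9998). Slc9a4, the sodium and proton exchanger NHE4 of the gastric basolateral membrane, had 292.7, 176.6 and 234.6 in pools 1, 2 and 3, against 331.5 on the vehicle chip. All treated chips were below vehicle, but their own spread was wide, with a coefficient of variation of 24.7%. The log2 difference was -0.50 with an interval from -1.21 to 0.21 (limma unadjusted p = 0.153, adjusted p = 0.9998), and it was -0.32 without pool 2. The ratio of Slc4a2 to Slc9a4 was above its vehicle value in each pool, by 0.44, 0.74 and 0.48 on the log2 scale. Their mean was 0.55 ± 0.16 (SD, n = 3). These differences share the single vehicle chip, so the SD holds the spread of the treated chips and none of the vehicle. The gap is a description of these chips and was not tested.

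Car2, the cytosolic carbonic anhydrase that forms bicarbonate and protons from carbon dioxide and water, had 2 bright probe sets listed with the same sequence record. The brighter one had 8664.4, 9949.6 and 7402.3 in pools 1, 2 and 3, against 8067.7 on the vehicle chip, so pools lay on both sides. The other had 8034.8, 8130.3 and 8054.5, against 6970.1 on the vehicle chip, and all treated chips were above it. The log2 difference was 0.09 for the brighter (interval -0.29 to 0.47) and 0.21 for the other (interval -0.11 to 0.53; limma adjusted p = 0.9998 for both). The second varied between pools with a coefficient of variation of 0.625%, against 14.7% for the first. Pool 3 was where they parted, below vehicle for one and above it for the other.

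The pools differed in which transport genes were high. By the brightest probe set, 5 of the 10 genes were highest of the treated chips in pool 1 (Atp4a, Atp4b, Slc4a2, Slc9a4 and Slc12a2), 3 in pool 2 (Kcnj15, Kcnj16 and Car2) and 2 in pool 3 (Kcnq1 and Kcne2). The median log2 difference of the 10 genes was 0.01, -0.11 and -0.19 in pools 1, 2 and 3. Over all 7150 genes tested these medians lay between -0.0012 and 0.0121. Markers of other cells moved between the chips as well, and their part in the values above was not tested. All 11 tested markers of keratinising squamous epithelium, out of 14 listed, were above vehicle on every treated chip, against 25.2% of all genes. Of these, 6 were called, against 0.126% of all genes. The marker lists were chosen with earlier results of these data known. Their summed signal was 6164.0 to 9585.9 in the treated pools, highest in pool 1, against 1892.4 on the vehicle chip, where the dimmest was Lgals7 at 22.4. Lgals7, Krt14, Krt5, Krt15 and Sprr3 had vehicle signals under the filter level of about 144.7, so they were tested through their treated chips. Lgals7 and Sprr3 are among the called genes, so both counts follow in part from the filter. Pit cell markers, which line the surface, summed to 167686 to 176777 in the treated pools against 153395 on the vehicle chip, with 9 of 10 tested genes higher on every treated chip, beside the same 25.2%, and 0 called. Smooth muscle markers summed to 80467.4 to 101436 in the treated pools, highest in pool 1, against 86789.6 on the vehicle chip. Markers of ECL cells, the histamine-storing endocrine cells, summed to 9053.1 to 9610.1 in the treated pools against 17255.4 on the vehicle chip. Chga at 7406.7 and Hdc at 3537.3 were large parts of that vehicle sum. Of 8 tested ECL genes, 6 were lower on every treated chip, against 24.0% of all genes. The 1 called was Hdc, which is also in the acid secretion lists below. Chief cell markers summed to 171075 to 190052 in the treated pools against 202361 on the vehicle chip, with a median log2 difference of -0.11. The largest gaps were those of Cym, chymosin, with 3952.1, 8203.8 and 7560.9 against 19071.1 on the vehicle chip (limma adjusted p = 0.070), and Chia, an acidic chitinase, with 15960.7, 29279.5 and 27607.8 against 31066.5 on the vehicle chip (adjusted p = 0.9998). Pgc, the precursor of pepsin C, had a log2 difference of -0.03 and Xbp1, a regulator of secretory cells, of 0.11.

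Other genes of acid secretion, grouped in 7 lists, showed 1 call among 64 tested genes. It was Hdc, the histidine decarboxylase that makes the histamine acting on parietal cells, with 1074.6, 1323.2 and 1121.5 in pools 1, 2 and 3 against 3537.3 on the vehicle chip (log2 difference -1.59, limma adjusted p = 0.0027). Under the alternatives that kept all 3 treated chips its adjusted p ran from 0.00069 to 0.153. The call was lost without the filter on dim probe sets (0.095) and without a trend in the prior variance (0.153). Without pools 1, 2 and 3 in turn its log2 difference was -1.53, -1.67 and -1.56. Over all genes by their brightest probe set, 0.126% were called. The median log2 difference of the 64 genes was -0.0043, with 9 lower and 14 higher on every treated chip, against 24.0% and 25.2% of all genes.

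Of 24 other parietal cell genes listed, 10 were tested and 0 were called, against 0.126% of all genes. On one side of vehicle in every pool were 0 of the 10. Of all genes, 24.0% were lower and 25.2% higher on every treated chip. The median log2 difference was -0.05, which was 0.04 without pool 2. Ckb, the brain-type creatine kinase that parietal cells use for energy supply, had 6046.1, 4067.7 and 4859.6 in pools 1, 2 and 3 against 5266.2 on the vehicle chip. Aqp4, the water channel of the parietal basolateral membrane, had 1615.6, 953.5 and 1326.2 against 1198.7 on the vehicle chip, and a dimmer Aqp4 probe set had 162.2, 149.9 and 137.8 against 201.0 on the vehicle chip, all below it. Ckb and the brightest Aqp4 probe set had their high value in pool 1 and their low value in pool 2, on either side of the vehicle chip. The smallest limma unadjusted p in this list belonged to Ndufa4, of the respiratory chain, at 0.463, followed by Pdha1, of pyruvate dehydrogenase, at 0.514, and Esrra, an oestrogen-related receptor, at 0.630. The value of Pdha1 is that of the brighter of its 2 tested probe sets.

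Of 8 tested genes of basolateral transport, 0 were called, against 0.126% of all genes. Atp1b1, the accessory subunit of the sodium pump that drives basolateral uptake, had 15085.4, 15543.3 and 12635.3 in pools 1, 2 and 3 against 18516.0 on the vehicle chip. All treated chips were below it, with a log2 difference of -0.37 and an interval from -0.71 to -0.02 (limma unadjusted p = 0.041, adjusted p = 0.9998). A second Atp1b1 probe set had 15229.2, 12031.8 and 13803.3 against 15047.0 on the vehicle chip, with pool 1 above it. Slc4a4, a sodium bicarbonate cotransporter, had 652.1, 632.3 and 456.8 against 413.2 on the vehicle chip (limma unadjusted p = 0.095), and its second probe set had a log2 difference of -0.02. Slc9a2, another sodium and proton exchanger, had a log2 difference of -0.02, Aqp1, a water channel, of 0.34, and Fxyd3, a regulator of the sodium pump, of 0.10.

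Of 6 other potassium channel genes tested, 0 were called, against 0.126% of all genes. Their median log2 difference was 0.18, which was 0.08 without pool 1 and 0.0027 without the filter. Kcnk6, a two-pore channel, had 401.0, 344.3 and 307.8 in pools 1, 2 and 3 against 185.0 on the vehicle chip, all above it (log2 difference 0.86, limma unadjusted p = 0.0092, adjusted p = 0.807). A second Kcnk6 probe set had 207.0, 240.0 and 199.5 against 172.6 on the vehicle chip (limma unadjusted p = 0.387). Kcne1, the cardiac partner of Kcnq1, had 378.2, 428.9 and 498.6 against 537.0 on the vehicle chip, all below it (log2 difference -0.30, limma unadjusted p = 0.245). Kcne3, a partner of Kcnq1 in other epithelia, had 291.4, 308.8 and 329.4 against 239.0 on the vehicle chip, all above it (log2 difference 0.35, limma unadjusted p = 0.225). Kcnn4, a calcium-activated channel, had 367.7, 235.9 and 160.3 against 167.7 on the vehicle chip, so it went both ways.

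Of 21 tested genes of pump traffic and the canalicular cytoskeleton, 0 were called, against 0.126% of all genes. On every treated chip 4 were lower and 7 higher, against 24.0% and 25.2% of all genes. Their median log2 difference was -0.0013. Cttn, the actin-binding cortactin, had 1423.8, 1201.3 and 1241.0 in pools 1, 2 and 3 against 893.3 on the vehicle chip (log2 difference 0.52, limma unadjusted p = 0.019, adjusted p = 0.987), while its dimmer probe set had a log2 difference of 0.03. Dnm2, a dynamin of membrane fission, had 394.0, 100.4 and 394.8 against 76.2 on the vehicle chip (limma adjusted p = 0.987). Pool 2 and the vehicle chip were both under the filter level, so the gene was tested through its other chips. Without pool 2, the treated chip near vehicle, its log2 difference was 2.15, which is not read as a difference. Ezr, the ezrin that ties the canalicular membrane to actin, and Rab11a, a GTPase of the pump vesicles, had log2 differences of 0.10 and 0.12, and a dimmer Rab11a probe set had -0.08. Msn, the ezrin relative moesin, and Vamp8, a vesicle fusion protein, had log2 differences of 0.33 and -0.18. Of the 15 tested genes of secretory control, Hdc apart, the smallest unadjusted p values were those of Prkaca, the catalytic subunit of protein kinase A, Plcb1, a phospholipase, and Cckbr, the gastrin receptor, at 0.079, 0.118 and 0.170.

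The remaining lists were short. Of 13 chloride channel and exchanger genes listed, 2 were tested, Slc12a7, a potassium and chloride cotransporter, with a log2 difference of -0.12, and Clcn3, a chloride exchanger, with -0.01. The value of Clcn3 is that of the brightest of its 3 tested probe sets. Of 12 other carbonic anhydrases listed, 3 were tested. Car8, a relative without the enzyme activity, had 380.0, 692.3 and 437.3 in pools 1, 2 and 3 against 329.9 on the vehicle chip, all above it (log2 difference 0.54, limma unadjusted p = 0.1002). Car3 went both ways, with 845.8, 249.7 and 458.5 against 585.5 on the vehicle chip, and mitochondrial Car5b had a log2 difference of 0.07. Car3 and Car5b each had 2 tested probe sets, and the brighter is given.

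**Figure D3:**
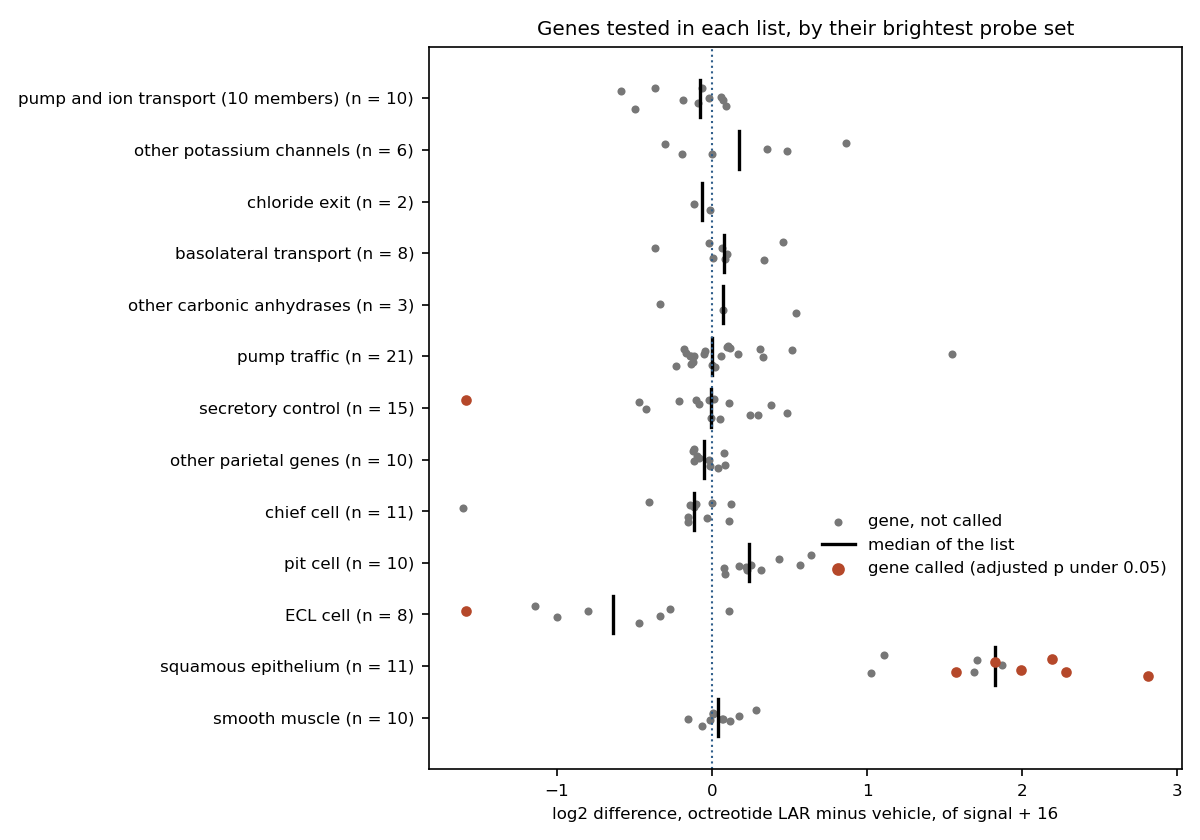
Log2 difference, octreotide LAR minus vehicle, of each tested gene by its brightest probe set, in rows for the 10 transport genes, 7 other lists of acid secretion and 5 lists of cell markers; red points were called by limma at an adjusted p under 0.05, black bars are list medians. The 10 transport genes lie between -0.58 and 0.09, with a median of -0.08, while the squamous markers all lie above 0 and Hdc is called in the rows that hold it.

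**Figure D4:**
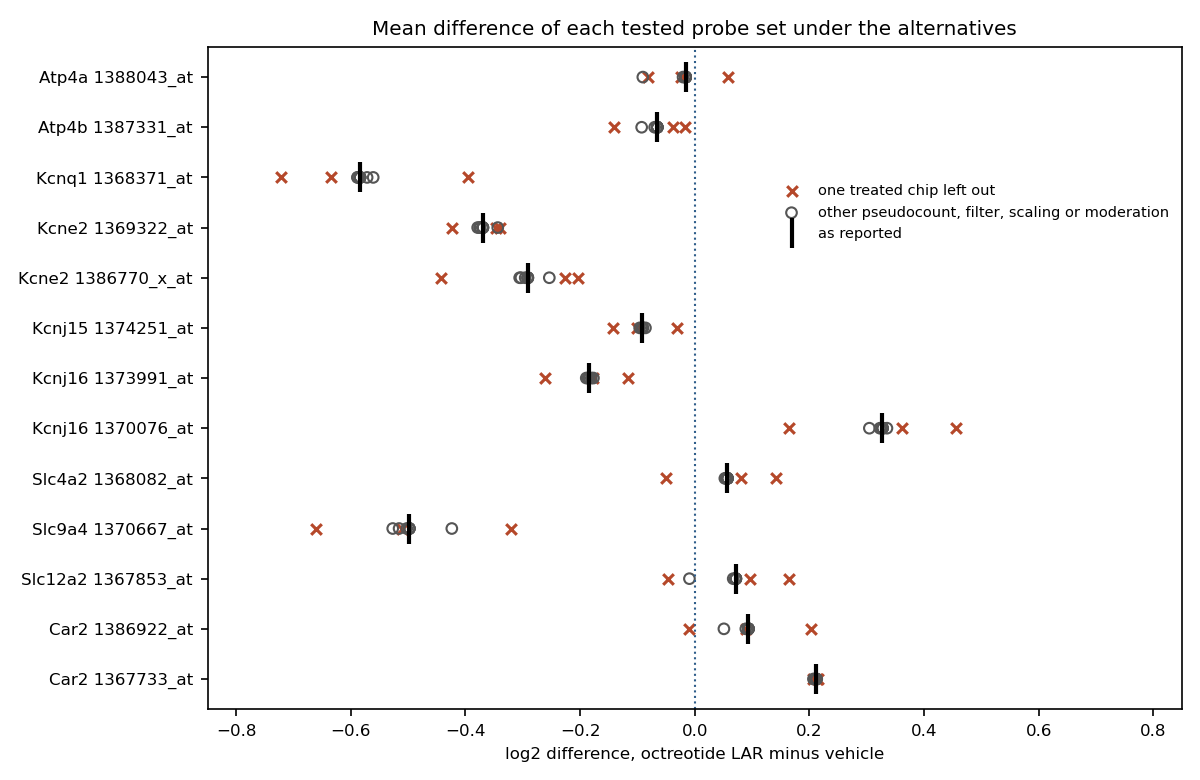
Mean log2 difference, octreotide LAR minus vehicle, of the 13 tested probe sets as reported (bar), with each treated chip left out (crosses) and with another pseudocount, filter, scaling or moderation (open circles). Kcnq1 stays below 0 in every setting, between -0.72 and -0.40, while Atp4a, Slc4a2, Slc12a2 and the brighter Car2 probe set lie on both sides of 0.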

How the data were processed

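The authors deposited 1 table of linear signal intensities per probe set for 4 Affymetrix RAE230A chips. The algorithm behind the deposited intensities is not given in the sources used here. Trimmed by 2% at each end, the chip means were 496.8 to 497.2, as if scaled to 1 target, so a change in total RNA cannot be seen. RNA was extracted with a Qiagen kit and biotin-labelled by in vitro transcription, per the labels' protocols. Samples were grouped by title.

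Signals were taken as log2(signal + 16) without further scaling, which understates differences at low signal. Probe sets with a mean log2 value under the 40th percentile were left out. limma 3.58.1 in R 4.3.3 compared 3 treated chips with 1 vehicle chip (lmFit, eBayes with a trend, two-sided), with 2 residual and 11.5 prior degrees of freedom. The code was checked on simulated chips. These gave the vehicle chip the same spread as the treated chips, so the check could not test that assumption. The number of chips limits the precision. Gene names came from the platform annotation and, by Entrez ID, from RefSeq GRCr8 (12748 of 12783 single-gene probe sets matched, 312 named several genes and 2771 none here). In gene counts the brightest probe set stood for its gene. Named genes were all probe sets of the 10 members, the 4 genes of smallest p in each acid secretion list (marker lists are given mainly by sums), and a few fixed by name, of which Slc26a7 and Clic6 have no probe set named here and others are not reported here. Members and lists were chosen with earlier results of these data known, and the gastric GATA motif was added after the promoters were seen. Alternatives changed the pseudocount, filter, scaling, moderation and set of treated chips.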

Additional observations from a re-analysis of the deposited data

How the results depend on the processing

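The count of called probe sets among the 13 tested was 0 under all 12 alternatives. Over all tested probe sets it was 10 as reported, 0 of 15866 without a filter (776 at an unadjusted p under 0.05) and 1 without a trend. It was 5 with quantile normalization, with centring on the 75th percentile and with the filter at the 20th percentile. With a pseudocount of 64 it was 7. It rose to 11 with a pseudocount of 1 and with the filter at the 60th percentile, and to 13 with robust moderation. The fits without pools 1, 2 and 3 had 1 residual degree of freedom each. Their prior degrees of freedom were 109.7, infinite and 274.6, against 11.5 as reported. Their p values and their counts over all probe sets are therefore not comparable with the others and are left out. Of the 13 probe sets, 9 kept their direction under every alternative that tested them. Slc12a2 turned to -0.0093 under quantile normalization. With each treated pool left out in turn, Slc12a2 ran from -0.046 to 0.17, Atp4a from -0.082 to 0.058, Slc4a2 from -0.051 to 0.14 and the brighter Car2 probe set from -0.011 to 0.20 on the log2 scale. Leaving out pools, 4 to 6 probe sets were lower and 2 to 4 higher on all remaining treated chips, and the median of the 10 genes ran from -0.12 to -0.02. In the same fits the median of the basolateral list ran from 0.015 to 0.13 and that of the other carbonic anhydrases from 0.033 to 0.28. The median of the other parietal genes ran from -0.089 to 0.043 and that of the other potassium channels from 0.078 to 0.19. For pump traffic it ran from -0.035 to 0.044, and for secretory control from -0.028 to 0.027. Without a filter, 0 genes of the acid secretion lists were called and the median of the other potassium channels was 0.0027. The causes of these shifts were not tested. No paired analysis was possible, because the single vehicle pool gives no partner for each treated pool and the replicate numbers mark no pairs. Of the 13 tested probe sets, the dim ones of Slc9a4 and the second Kcne2 probe set had the widest intervals.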

Other observations

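Some genes of the parietal cell gave signals too dim to test. Hrh2, the histamine receptor through which ECL cells drive acid secretion, had 9.5, 34.7 and 38.0 in pools 1, 2 and 3, against 10.5 on the vehicle chip. Kcnj10, the Kir4.1 partner of Kir5.1, had 67.3, 73.8 and 37.4, against 89.4 on the vehicle chip. Kcnj1, a renal-type potassium channel, had 1.7, 82.5 and 6.0, against 4.7 on the vehicle chip. All 3 lay under the filter level of about 144.7, and Hrh2 and Kcnj1 lay on both sides of the vehicle value.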
